A study of Mus musculus with 20 samples.

Results

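The effect of losing the muscle ubiquitin ligase MuRF1, encoded by Trim63, was examined in hearts of mice that ate plain chow, without any drug. The comparison takes the 6 chow hearts of a set of 20, which were 3 labelled MuRF1 -/- and 3 labelled MuRF1 +/+, chosen by their titles alone. The labels give 8 weeks on chow for both groups and no age, while the series text uses 3 to 8 weeks as an age; the labels were followed, so weeks here are time on the diet. They call the hearts biological replicates and describe whole hearts. The deleted stretch of Trim63 and the sex, litter and strain of these animals are not given in the sources used here, and the series text calls the groups strain-matched. The other 14 hearts came from animals of both genotypes fed fenofibrate, an agonist of PPAR alpha, at 0.05% of the diet by weight for 3 weeks (4 and 4 hearts) or 8 weeks (3 and 3 hearts). Each array carried RNA of 1 heart and a common reference made from whole C57BL/6 pups. Every level below is therefore a log2 ratio of heart over newborn reference, and every difference is MuRF1 -/- minus MuRF1 +/+ on that scale, with its SE.

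MuRF1 belongs to the TRIM family of RING-type ubiquitin ligases. It sits at the M-band and Z-disc of the sarcomere, attaches ubiquitin to contractile proteins such as troponin I and myosin heavy chain, and so marks them for the proteasome. It is best known as a gene that rises in wasting skeletal muscle. Its near relatives MuRF2 and MuRF3, encoded by Trim55 and Trim54, bind overlapping partners in heart muscle. The comparison asks which transcripts differ between hearts with and without this ligase in animals under no drug.

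Few transcripts did. Of 14567 genes tested, 13 passed an adjusted p of 0.05 (0.0892%) in limma's moderated test with Benjamini-Hochberg adjustment over all genes. Of these, 5 were higher in MuRF1 -/- hearts (0.0343%) and 8 were lower (0.0549%), Trim63 itself included. In all 13 the 3 MuRF1 -/- hearts and the 3 MuRF1 +/+ hearts did not overlap, as was so for 12.3% of all genes tested. At an unadjusted p under 0.05 there were 463 genes (3.18%), 187 of them higher (1.28%) and 276 lower (1.89%). The median difference over all genes was 0.003 and the median SE was 0.115. The adjusted p-values below are all from this limma fit. They and the SEs rest on a spread between hearts pooled over the groups of all 20 arrays, fenofibrate hearts included. They do not measure the spread of the chow hearts alone. There were 3 chow hearts per genotype, and that number limits the precision.

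Trim63 came first. Its ratio was -0.97, -0.96 and -1.11 in the 3 MuRF1 -/- hearts and 2.59, 2.38 and 2.49 in the 3 MuRF1 +/+ hearts. The groups lay far apart and each was tight. The difference was -3.51 ± 0.334 (adjusted p = 5.31e-05), an 11.4-fold lower level. The tested probe was still well above background in 3 of 3 MuRF1 -/- hearts. A dimmer probe for the same gene read 0.02, -0.06 and 0.00 in MuRF1 -/- hearts and 0.24, 0.15 and 0.41 in MuRF1 +/+ hearts. It was well above background in 0 of 3 and 3 of 3, with a difference of -0.28 ± 0.0908. Where either probe lies relative to the deleted stretch was not tested. By the tested probe, all 6 hearts matched their genotype labels.

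The close relatives did not pass the test. Trim54 read 2.80, 2.51 and 2.88 against 2.48, 2.41 and 2.44. Its groups did not overlap, and their SDs were 0.195 and 0.0364 (n = 3 each). The difference was 0.29 ± 0.256, with the SE taken over all 20 arrays. Among these, MuRF1 +/+ hearts at 8 weeks of fenofibrate had an SD of 0.727 (n = 3). Trim55, at 0.15 ± 0.224, had overlapping groups. Among 27 tested genes of the MuRF family and other muscle ubiquitin ligases, Trim63 alone passed. The median of the list was 0.02, against 0.003 over all genes. Fbxo32, the other ligase best known from muscle wasting, differed by -0.03 ± 0.221. Fbxo40, an F-box protein of striated muscle, differed by -0.47 ± 0.387.

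**Figure D1:**
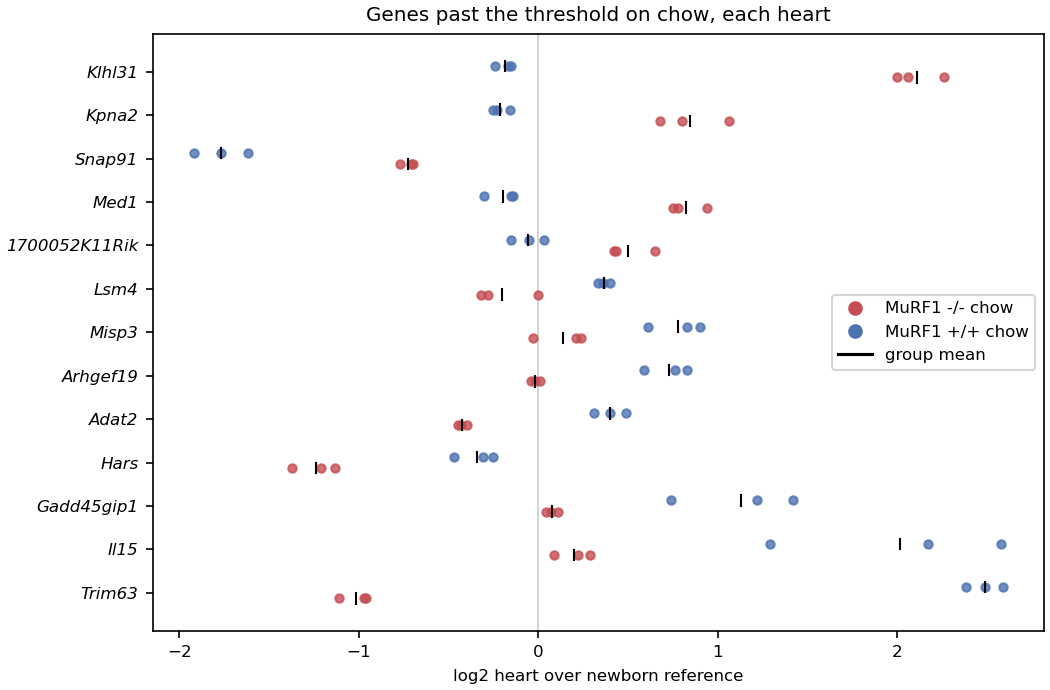
Log2 ratio of heart over newborn reference (horizontal axis) for the 13 genes past the threshold on chow, 1 point per heart, with MuRF1 -/- hearts in red, MuRF1 +/+ hearts in blue and a black tick at each group's mean. Trim63 at the bottom separates by 3.51 and Klhl31 at the top by 2.29 in the other direction, and in none of the 13 do the groups overlap.

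The 5 genes that rose were Klhl31, Kpna2, Snap91, Med1 and 1700052K11Rik. Klhl31 encodes a kelch-like adaptor of cullin ubiquitin ligases found in heart and skeletal muscle. It read 2.06, 2.00 and 2.26 in MuRF1 -/- hearts and -0.15, -0.17 and -0.24 in MuRF1 +/+ hearts. The change of 2.29 ± 0.241 (adjusted p = 0.000127) was 4.9-fold, the widest after Trim63 on this scale. All 3 of these MuRF1 -/- hearts also stood above the other 17 hearts of the set, whose highest was 1.95. Klhl40 and Klhl41, muscle members of the same kelch family, differed by 0.13 ± 0.162 and 0.04 ± 0.0914.

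Med1 encodes the Mediator subunit through which nuclear receptors, PPAR alpha and the thyroid hormone receptors among them, contact the transcription machinery. Its ratio was 0.94, 0.75 and 0.78 in MuRF1 -/- hearts and -0.14, -0.15 and -0.30 in MuRF1 +/+ hearts. The gap exceeded the spread within either group several times over. The difference was 1.02 ± 0.111 (adjusted p = 0.000131). Kpna2, an importin alpha that carries proteins into the nucleus, read 0.80, 1.06 and 0.68 against -0.23, -0.16 and -0.25. It rose by 1.06 ± 0.166 (adjusted p = 0.00814), and its MuRF1 -/- chow hearts too were above the other 17 hearts, which reached 0.44.

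Snap91, a clathrin assembly protein known mainly from synapses, was dim in these hearts. It read -0.70, -0.77 and -0.71 against -1.77, -1.62 and -1.92, with a difference of 1.04 ± 0.16 (adjusted p = 0.00767). Its probe was well above background in 3 of 3 MuRF1 -/- hearts but 1 of 3 MuRF1 +/+ hearts. The gene 1700052K11Rik, known by its RIKEN name, showed the smallest of the increases. It read 0.43, 0.42 and 0.65 against -0.05, -0.15 and 0.03, a difference of 0.55 ± 0.09 (adjusted p = 0.0104).

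The 7 genes besides Trim63 that fell were Il15, Gadd45gip1, Hars, Adat2, Arhgef19, Misp3 and Lsm4. Il15 encodes a cytokine that sustains natural killer and memory T cells and is abundant as mRNA in muscle. Its ratio was 0.22, 0.29 and 0.09 in MuRF1 -/- hearts and 2.17, 1.29 and 2.58 in MuRF1 +/+ hearts. The second MuRF1 +/+ heart was well under both others of its group, yet above every MuRF1 -/- heart. The difference was -1.81 ± 0.25 (adjusted p = 0.00262), or 3.52-fold. The probe was well above background in 1 of 3 MuRF1 -/- hearts and 3 of 3 MuRF1 +/+ hearts.

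Several of the genes that fell work in translation and RNA handling. Gadd45gip1, a protein of the large mitochondrial ribosomal subunit, read 0.04, 0.07 and 0.11 against 1.22, 0.74 and 1.42, a difference of -1.05 ± 0.176 (adjusted p = 0.0134). Hars, the synthetase that charges histidine tRNA, read -1.21, -1.13 and -1.37 against -0.25, -0.47 and -0.31, a difference of -0.89 ± 0.145 (adjusted p = 0.0104). Adat2, the catalytic subunit of the enzyme that deaminates the wobble adenosine of tRNAs, read -0.45, -0.40 and -0.43 against 0.40, 0.31 and 0.49. Its difference was -0.83 ± 0.121 (adjusted p = 0.00518). Lsm4, an Sm-like protein of U6 snRNA and of mRNA decay, read -0.28, 0.00 and -0.32 against 0.33, 0.40 and 0.36. It lay nearest the threshold, with a difference of -0.57 ± 0.105 (adjusted p = 0.0425). These genes were grouped after their values were seen, and no list of translation genes was tested.

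Arhgef19, a guanine nucleotide exchange factor, had the most even MuRF1 -/- values, -0.04, 0.01 and -0.02, against 0.76, 0.59 and 0.83 in MuRF1 +/+ hearts. Its fitted difference was -0.74 ± 0.0829 (adjusted p = 0.000159). The probe was not well above background in any MuRF1 -/- heart on chow, so the ratio there has only a bound. From the heart channel, with the lowest signal among probes well above background as the floor, the level was at least 1.56-fold lower. Misp3 read -0.03, 0.21 and 0.24 against 0.83, 0.61 and 0.90, a difference of -0.64 ± 0.101 (adjusted p = 0.00814), with 2 of 3 MuRF1 -/- hearts above background. Across all 8 genes that fell, MuRF1 +/+ heart 2 had the lowest value of its group in 7, Lsm4 being the exception.

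The firmness of these calls differed. Trim63, Klhl31, Med1, Arhgef19 and Il15 stayed past the threshold in limma when any 1 of the 6 chow arrays was left out, with adjusted p-values of at most 0.0339. The other 8 lost the call without at least 1 array. Their signs could not change, because the groups did not overlap. Lsm4 lost it without 5 of the 6 arrays, all but MuRF1 -/- replicate 2 (adjusted p up to 0.328), and Gadd45gip1 without 5, all but MuRF1 +/+ replicate 2 (up to 0.165). Kpna2 (up to 0.0789) and Hars (up to 0.105) lost it without MuRF1 -/- replicate 1 and without MuRF1 +/+ replicates 1 and 3. Kpna2 also lost it without MuRF1 -/- replicate 2, and Hars without MuRF1 -/- replicate 3. Snap91 (up to 0.0789) and Misp3 (up to 0.0864) lost it without replicate 1 of either genotype and without MuRF1 +/+ replicate 3. The RIKEN gene 1700052K11Rik lost it without MuRF1 -/- replicate 3 and without MuRF1 +/+ replicates 1 and 2 (up to 0.103), and Adat2 only without MuRF1 +/+ replicate 3 (0.0574). Over all 21 other settings, Lsm4 lost the call in 14, Hars in 10 and 1700052K11Rik in 10. Il15 lost it in Agilent's own ratios, where it differed by -3.90 (adjusted p = 0.182 in limma), and without the 3-week arrays. Adat2 lost it in the authors' own values as well. There the ratios of MuRF1 -/- chow replicate 2 had an SD of 0.417, against 0.728 to 0.827 on the other chow arrays. The slope of that array on Agilent's log ratio was 0.328, against 0.734 to 0.784. The part this plays in results from the authors' values was not tested. In Agilent's ratios Snap91 differed by 3.06, Arhgef19 by -3.05 and Misp3 by -1.69, against 2.66 for Klhl31.

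Of the 6 chow arrays, replicates 1 of both genotypes shared a slide and replicates 3 shared another, slides being told apart by their scan. For the 4 arrays of the first of these slides the header names another slide, the same one for all 4, so both replicates 1 share a slide by either reading. With slide as a block in limma 10 genes passed, and Snap91, Misp3, Lsm4 and 1700052K11Rik did not. The sign within a shared slide could not change, because the groups did not overlap in any of the 13 genes. Trim63 differed by -3.56 and -3.60 there, Klhl31 by 2.21 and 2.50, Med1 by 1.08 and 1.08, and Il15 by -1.95 and -2.49. Arhgef19 differed by -0.80 and -0.84, and Lsm4 by -0.61 and -0.68.

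Several of the 13 genes carry more than 1 probe, and the probes of a gene often disagreed. The tested probe is the one with the brightest heart signal. For Klhl31 a second probe, well above background in all 6 chow hearts, read 0.28, 0.37 and 0.20 against 0.22, 0.34 and 0.28, with a difference of 0.00 ± 0.126. The increase of Klhl31 was thus measured by 1 of its probes and not by the other. For Med1 one further probe differed by 0.24 ± 0.0806, in the same direction, and a dimmer one by -0.23 ± 0.106, in the other. A second Gadd45gip1 probe, above background in all 6 chow hearts, differed by 0.04 ± 0.08. For Kpna2 a second bright probe had the same sign, at 0.29, 0.77 and 0.21 against -0.13, -0.21 and -0.20, or 0.60 ± 0.125 (adjusted p over probes 0.143 in limma). The second Il15 probe differed by -0.24 ± 0.0679 and was above background in 0 of 3 and 1 of 3 hearts. The further probes of Hars and Snap91 were not well above background in any chow heart. The probe sequences and their places in the transcripts were not used here.

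**Figure D2:**
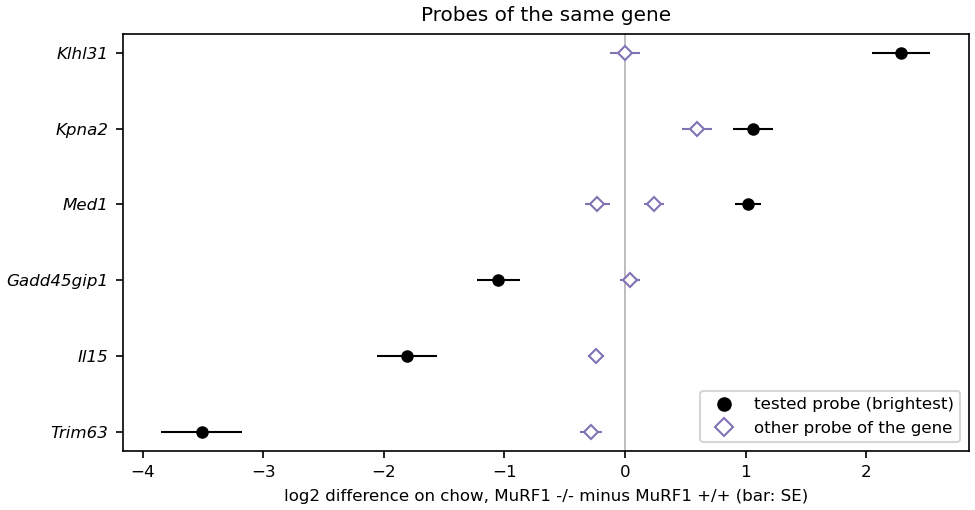
Log2 difference on chow with its SE (horizontal axis) for each measured probe of the 6 genes past the threshold that have more than 1 probe well above background on at least 3 arrays. Black points are the tested, brightest probes and open diamonds the others. The second Klhl31 probe lies at 0.00 where the tested one lies at 2.29, and only for Kpna2 does another probe reach 0.60.

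Whether the 13 genes differed by genotype in other hearts too was asked in the fenofibrate groups, which share no array with the chow hearts. Trim63 was lower in MuRF1 -/- hearts there by -3.51 ± 0.289 at 3 weeks and -3.0 ± 0.334 at 8 weeks. Of the other 12 genes, 9 had the same sign as on chow at 3 weeks, 11 at 8 weeks and 8 at both. At 3 weeks 6 of the 12 passed the threshold in the same direction, where 59 of all tested genes did (0.405%). At 8 weeks 3 did, where 52 of all genes did (0.357%). At an unadjusted p under 0.05, 8 of the 12 had the same sign at 3 weeks and 9 at 8 weeks, where 5.4% and 22.3% of all genes reached that p in either direction. The chow differences used no fenofibrate heart, but the fenofibrate hearts entered the shared estimate of spread and the background filter. They therefore helped decide which genes passed on chow, so these counts are not independent of that choice. Of the 13 genes, 5 passed on chow without the 3-week arrays and 10 with only the 6 chow arrays. The 8-week groups also differed in transcripts of the Y chromosome. Ddx3y and Eif2s3y were both well above background in 2 of 3 MuRF1 -/- hearts and 0 of 3 MuRF1 +/+ hearts at 8 weeks, in 0 of 4 and 0 of 4 at 3 weeks, and in 3 of 3 and 3 of 3 on chow. The part this plays in the 8-week differences was not tested.

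Klhl31 and Med1 passed in all 3 diet groups, along with Trim63. Klhl31 was higher by 1.35 ± 0.209 at 3 weeks (limma adjusted p = 0.00818) and by 1.62 ± 0.241 at 8 weeks (limma adjusted p = 0.00655). In MuRF1 -/- hearts it ranged from 0.25 to 1.61 at 3 weeks and from 1.40 to 1.95 at 8 weeks, and in MuRF1 +/+ hearts it did not exceed 0.11 in either. Med1 was higher by 0.97 ± 0.0958 at 3 weeks and 0.72 ± 0.111 at 8 weeks. Adat2 and Hars were each lower by 0.92 at 3 weeks, as differences of -0.92 ± 0.105 and -0.92 ± 0.125, close to their values on chow. At 8 weeks the differences were -0.31 ± 0.121 and -0.44 ± 0.145, neither past the threshold. Snap91 rose by 0.67 ± 0.138 and 1700052K11Rik by 0.36 ± 0.078 at 3 weeks, and Gadd45gip1 fell by 0.88 ± 0.176 at 8 weeks (as a difference of -0.88).

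Il15, Arhgef19, Lsm4, Misp3 and Kpna2 passed on chow and in neither fenofibrate group. Kpna2 differed by 0.46 ± 0.144 at 3 weeks and 0.77 ± 0.166 at 8 weeks (limma adjusted p = 0.361 and 0.0521), and on chow it was the MuRF1 -/- hearts that lay above the rest. For Il15 the groups at 3 weeks lay together, at 0.33 ± 0.0839 (SD, n = 4) in MuRF1 -/- and 0.27 ± 0.127 (SD, n = 4) in MuRF1 +/+ hearts. At 8 weeks MuRF1 +/+ hearts ranged from 0.18 to 1.25 and MuRF1 -/- hearts from 0.06 to 0.19. All 3 MuRF1 +/+ chow hearts were above the other 17 hearts of the set for Il15, whose highest was 1.25. The same held for Arhgef19, with 0.27 as the highest of the other hearts, and for Lsm4, with 0.12. For Il15, Arhgef19 and Lsm4 the hearts that stood apart were thus the MuRF1 +/+ chow hearts, while MuRF1 -/- chow hearts lay within the range of the rest.

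The difference of the genotype effects between the fenofibrate and chow hearts was itself tested, as an interaction. Of the 6 chow hearts all 6 had both Y-linked transcripts above background, but none of the 8 given fenofibrate for 3 weeks did and only 2 of the 6 given it for 8 weeks, so diet and the sex of the animals cannot be told apart where chow hearts are set against fenofibrate hearts. No gene passed for 3 weeks minus chow or for 8 weeks minus chow in limma (6 did at 8 weeks in the authors' own values), while 330 genes (2.27%) and 2520 genes (17.3%) had an unadjusted p under 0.05. At 3 weeks minus chow, the genotype difference of Il15 shifted upwards by 1.88 ± 0.331 (limma adjusted p = 0.257) and that of Misp3 by 0.72 ± 0.133 (limma adjusted p = 0.257), both towards 0. For Arhgef19 no shift is given, since its probe was well above background in 0 of 3 hearts of either genotype at 8 weeks and in 0 of 3 MuRF1 -/- chow hearts. The chow hearts enter these differences, and the genes were chosen for their difference on chow. Looking the other way, of 58 genes besides Trim63 called at 3 weeks, 45 had the same sign on chow, 9 of them at an unadjusted p under 0.05. Of 51 called at 8 weeks, 28 had the same sign and 9 reached that p.

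**Figure D3:**
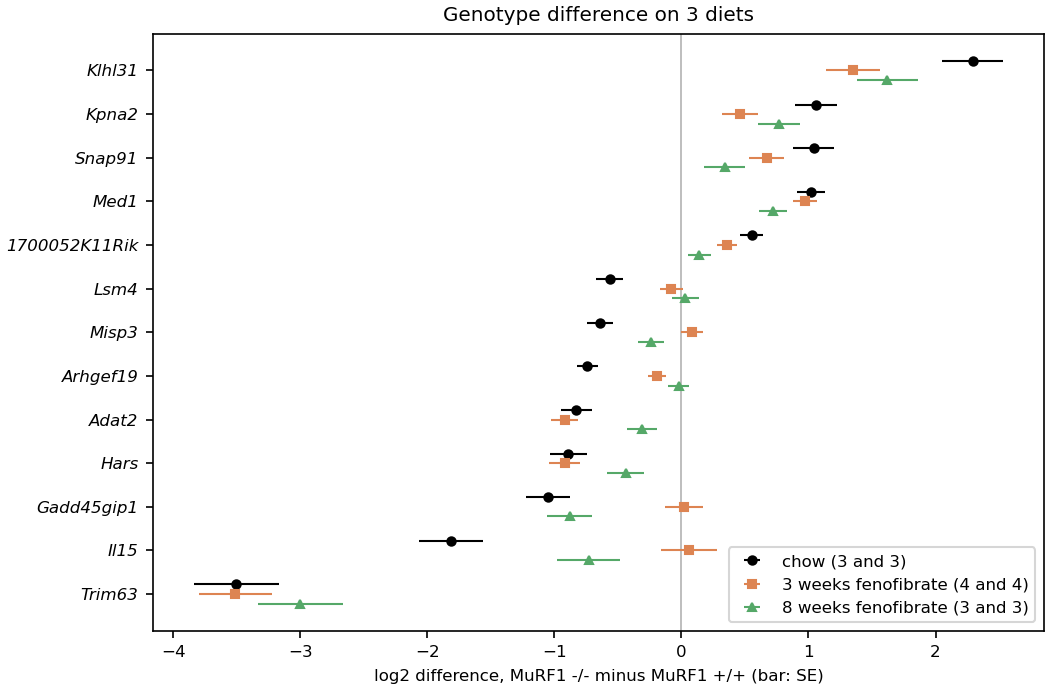
Log2 difference, MuRF1 -/- minus MuRF1 +/+, with its SE (horizontal axis), for the 13 genes past the threshold on chow, on chow (black circles) and after 3 weeks (orange squares) and 8 weeks (green triangles) of fenofibrate. Trim63, Klhl31 and Med1 lie on the same side of 0 in all 3, whereas Il15 lies at -1.81 on chow and 0.06 at 3 weeks.

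The 13 genes were spread over 6 chromosomes, and several were near neighbours in gene order. Chromosome 8 held 4, in the order Lsm4, Il15, Misp3 and Gadd45gip1, all lower, with 72, 16 and 14 places between neighbours among its 661 tested genes. Chromosome 11 held Med1, 1700052K11Rik and Kpna2, all higher, with 132 and 25 places between them among 1052. Chromosome 4 held Trim63 and Arhgef19, both lower and 86 places apart among 777. Chromosome 9 held Klhl31 and Snap91, both higher and 30 places apart among 705. Adat2 lies on chromosome 10 and Hars on chromosome 18. Gene order was taken from RefSeq's annotation of GRCm38.p6.

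The immediate neighbours of Trim63 were measured because it is the targeted gene. None of the 5 tested genes on either side passed. Their differences ran from -0.16 for Cep85, a centrosomal protein, to 0.25 for Grrp1. Slc30a2, a zinc transporter next in order, differed by 0.02 ± 0.0839.

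To see where genes at an unadjusted p under 0.05 in limma lay, each chromosome was divided into blocks of 100 consecutive tested genes. This was done after the positions of the 13 genes were known and is a description. The counts include the 13 genes themselves, which raise the counts of their own blocks. Of 114 blocks, the median block held 3 genes at an unadjusted p under 0.05. The fullest held 16 and was the chromosome 8 block from place 301 to 400, which contains Il15, Misp3 and Gadd45gip1. The second held 12 and was the chromosome 4 block from 601 to 700, which contains Arhgef19. The third, from 501 to 600 on chromosome 9, held 11 and no gene past the threshold. The fourth held 10 and was the chromosome 8 block from 201 to 300, with Lsm4. In contrast, the block with Trim63 held 4 and the block with Med1 held 3.

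Within these blocks both directions occurred. In the fullest block 6 of the 16 genes were higher and 10 lower, the 3 past the threshold being among the lower. Dnase2a, a lysosomal nuclease, differed by 0.52 ± 0.153 and Calr, the calcium-binding chaperone calreticulin, by 0.40 ± 0.116. Wdr83 differed by -0.47 ± 0.173 there. In the chromosome 4 block Zfp933, a zinc finger protein, differed by -0.67 ± 0.134 and lay just outside the threshold (adjusted p = 0.0837 in limma), and it passed in 6 other settings, the authors' own values and slide as a block among them. Its neighbours Zfp985 and Zfp987 differed by -0.43 ± 0.104 and -0.38 ± 0.0971. Genes of this zinc finger cluster are alike in sequence, so a probe may bind more than 1 of them. Rcc2, a regulator of chromosome condensation, differed by 0.64 ± 0.175. In the chromosome 9 block Ephb1, an ephrin receptor, differed by -1.03 ± 0.233 (adjusted p = 0.227 in limma). None of the genes named in this paragraph passed the test as run on all 20 arrays. With array weights Zfp933, Rcc2 and Ephb1 passed, and Ephb1 also without MuRF1 -/- chow replicate 3.

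**Figure D4:**
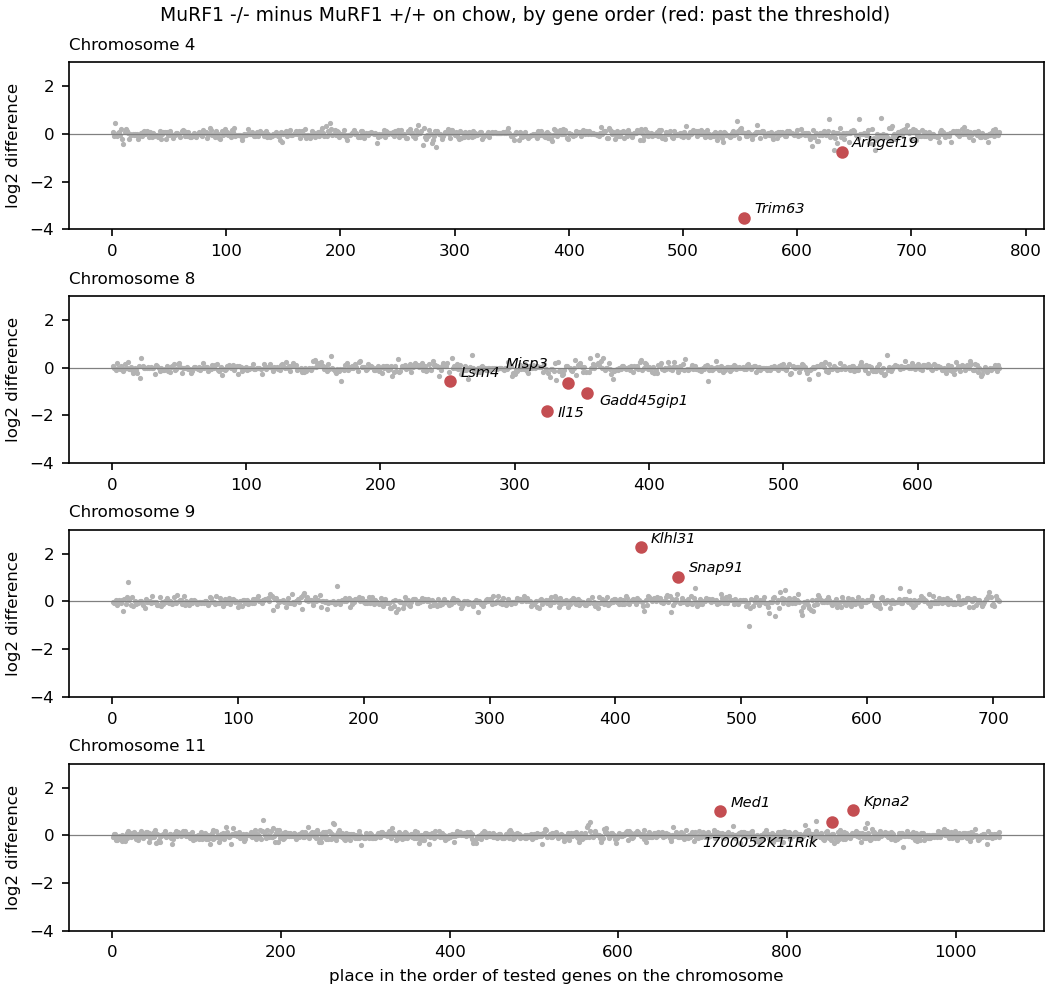
Log2 difference on chow (vertical axis) against the place of each tested gene in gene order (horizontal axis) for the 4 chromosomes with more than 1 gene past the threshold, which are shown in red. Grey points are the other tested genes, and the 3 red points close together on chromosome 8 are Il15, Misp3 and Gadd45gip1.

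Beyond single genes, 26 lists were followed, and no member of any list passed the test apart from Trim63, at a background of 0.0892%. List medians ran from -0.16 to 0.16, and some moved or turned sign with the processing. Medians given in the authors' values include the narrow ratios of MuRF1 -/- chow replicate 2, whose part was not tested. For the proteasome, which degrades what MuRF1 marks, 6 of 32 subunits were higher, 26 were lower, and the median was -0.07. Over all genes, 7397 of 14567 were higher. In 12 of the 32 the hearts of the groups did not overlap, against 12.3% of all genes. Psmd13, a lid subunit, read 0.05, 0.33 and 0.07 in MuRF1 -/- hearts and 0.46, 0.38 and 0.48 in MuRF1 +/+ hearts, a difference of -0.29 ± 0.141. Psmc2, an ATPase of the base, differed by -0.28 ± 0.176 and Psmd7 by 0.14 ± 0.163.

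The contractile apparatus holds the best known substrates of MuRF1. Of its 32 tested genes 21 were higher and the median was 0.06, which was -0.06 in the authors' own values. Myl3, the ventricular essential light chain, differed by 0.57 ± 0.32, and Ttn, the giant spring titin, by 0.57 ± 0.317. For Ttn a single MuRF1 -/- heart at 0.74 stood above the others at -0.43 and -0.44, while MuRF1 +/+ hearts read -0.86, -0.28 and -0.70. Markers of fetal gene expression and hypertrophy had a median of 0.01. Myh7, the slow myosin heavy chain, read 1.42, 0.25 and 1.20 against -0.09, 0.51 and 0.00, a difference of 0.82 ± 0.436 with overlapping groups. Nppb, which encodes the natriuretic peptide BNP, differed by 0.66 ± 0.445, Nppa by -0.12 ± 0.225 and Acta1, skeletal actin, by 0.01 ± 0.309. Myh6, the adult myosin heavy chain, differed by 0.07 ± 0.238.

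Energy metabolism was followed in 4 lists. In glucose uptake, glycolysis and pyruvate dehydrogenase, 6 of 27 genes were higher and the median was -0.12. Ldha, which makes lactate, read -0.05, 0.24 and 0.03 against 0.55, 0.16 and 0.47, a difference of -0.32 ± 0.12 (unadjusted p = 0.0161 in limma). Pdhb, a subunit of pyruvate dehydrogenase, read 1.37, 1.91 and 1.39 against 2.11, 2.01 and 2.01, a difference of -0.49 ± 0.29. In the respiratory chain and ATP synthase, 8 of 32 genes were higher and the median was -0.06, or -0.27 in the authors' values. Sdhb, the iron-sulfur subunit of succinate dehydrogenase, read 1.12, 1.37 and 1.30 against 1.97, 1.82 and 1.99. Its groups were well apart, but the SE taken over all 20 arrays was 0.384 for a difference of -0.66. Without the 2 fenofibrate arrays that stood apart from the rest, the same difference passed (adjusted p = 0.0412 in limma).

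Targets of PPAR alpha, the receptor that fenofibrate activates, had a median of 0.03 over 31 genes, which was -0.04 in the authors' values. Acot1, an acyl-CoA thioesterase, read -1.15, -1.41 and -0.73 against -1.98, -1.56 and -2.28, a difference of 0.84 ± 0.387 (unadjusted p = 0.0429 in limma). Acot2 is nearly identical in sequence and differed by 0.08 ± 0.294, so the assignment between them is uncertain. Cd36, the fatty acid transporter, differed by 0.40 ± 0.22, Fabp3 by 0.35 ± 0.401 and Cpt1b by 0.04 ± 0.139. Genes of the thyroid hormone response had a median of -0.02, which was 0.06 in Agilent's own ratios, with Thrsp at -0.50 ± 0.198. Creatine kinases and adenylate kinases had a median of -0.06.

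In the interferon response 21 of 23 genes were higher, with a median of 0.14. B2m, the light chain of MHC class I, differed by 0.48 ± 0.248. Within the slide of the replicate 3 pair, the median of this list was -0.08. Immediate early and heat shock genes had a median of 0.16 and 17 of 19 were higher. The mean of this list overlapped between groups, at -0.39 to 0.08 in MuRF1 -/- hearts and -0.46 to -0.2 in MuRF1 +/+ hearts. Hsp90aa1, an inducible chaperone, read -0.68, -1.18 and -1.52 against -1.68, -1.52 and -1.71, a difference of 0.51 ± 0.183. Ddit4, a glucocorticoid target, differed by -0.73 ± 0.388. Clock, of the circadian oscillator, differed by 0.28 ± 0.086 (unadjusted p = 0.00407 in limma), while its list had a median of 0.00. Autophagy and lysosome genes had a median of 0.03, and calcium handling genes one of -0.01.

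**Figure D5:**
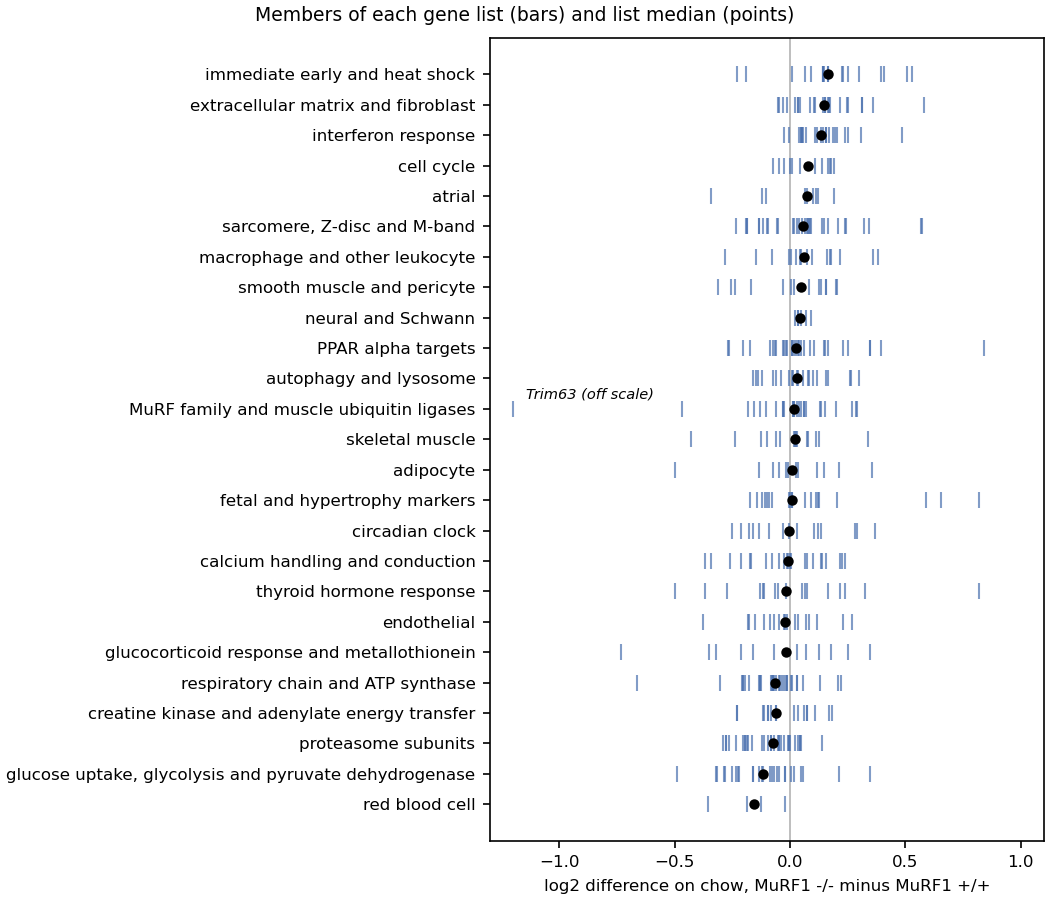
Log2 difference on chow (horizontal axis) for every tested member (bars) of 25 gene lists, ordered by list median (points), the sex-linked list being left out. Medians lie between -0.16 and 0.16, and Trim63, drawn at the left edge because its -3.51 is off the scale, is the only member past the threshold.

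Markers of other cell types were measured because bulk heart RNA mixes them, and a smaller share of a cell type cannot be told apart from less of its RNA per cell. No marker passed the test in any of these lists. Extracellular matrix and fibroblast genes had a median of 0.15 with 20 of 24 higher, which was -0.05 within the slide of the replicate 3 pair. Fbln1, a matrix glycoprotein, read 1.48, 0.21 and 0.62 against 0.21, 0.21 and 0.16, so that 1 heart carried most of its difference of 0.58 ± 0.261. The mean of that list ran from -2.14 to -1.62 in MuRF1 -/- hearts and from -2.12 to -1.92 in MuRF1 +/+ hearts. Endothelial genes had a median of -0.02, smooth muscle and pericyte genes 0.05, macrophage and other leukocyte genes 0.06, and adipocyte genes 0.01. Within the slide of the replicate 1 pair the macrophage median was 0.38 and the smooth muscle median 0.32. Cd74, the invariant chain of antigen-presenting cells, differed by 0.36 ± 0.163, and Cd14, a receptor of macrophages, by -0.28 ± 0.119. Atrial genes had a median of 0.07, skeletal muscle genes 0.02, neural and Schwann cell genes 0.04, cell cycle genes 0.08 (0.53 in the authors' values), and the 4 tested red blood cell genes -0.16.

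Not every heart muscle gene was above the newborn reference, Ttn averaging -0.045 in MuRF1 -/- and -0.612 in MuRF1 +/+ hearts. The markers Myh6, Tnni3, Tnnt2, Myl2, Actc1 and Pln were above it in both groups, as were Ckm, muscle creatine kinase, at 0.93 and 0.85, and Mybpc3. The latter, cardiac myosin-binding protein C, read 6.41 ± 0.25 (SD, n = 3) in MuRF1 -/- and 6.46 ± 0.0833 (SD, n = 3) in MuRF1 +/+ hearts, and Tnni3, cardiac troponin I, 5.59 ± 0.45 and 5.34 ± 0.271. On the 6 chow arrays, heart RNA gave between 38.8% and 44.2% of probes a signal well above background, and 0 heart spots were saturated. Log2 ratios of any 2 chow arrays correlated at 0.967 to 0.990 across probes, which are not independent replicates.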

How the data were processed

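The members and the gene lists were chosen with earlier results of these data known. The deposited scanner files give spot intensity from Agilent Feature Extraction 9.5.3.1, array design 014868, per the file headers, with heart RNA as Cy5 and reference as Cy3 per the labels of the channels; a protocol text names Cy3 for heart RNA, and no dye swap is labelled. The log10 ratio in the same files and the log2 values of the authors' series matrix were alternatives. Per the labels, RNA was extracted with Qiagen AllPrep and 50 ng amplified with Agilent's low-input kit. Flags of the deposited files, coded 0 or 1 (other values), marked spots as well above background, saturated or outliers.

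Intensities were corrected with normexp (offset 50), leaving out 7 spots of MuRF1 -/- chow replicate 2 whose background exceeded their signal by over 50. Ratios were then normalized by loess within arrays, with control spots given no weight. Spots flagged as outliers stayed in these steps and were set to missing afterwards. The brightest probe stood for a gene and needed to be well above background on at least 3 of 20 arrays. Group means of all 20 arrays were fitted in limma 3.58.1 (R 4.3.3, version 1.17.8 of data.table) with a trended prior. Ratios so made are compressed: slopes on Agilent's log ratio were 0.552 to 0.638. On simulated arrays with independent noise (14567 genes), 66, 67 and 67 genes were given changes of 0.5, 1 and 2 (log2). Of these, 59.1%, 89.6% and 100% were recovered, with 7 false calls. Far more genes were changed there than passed on chow, which makes the adjusted threshold less strict. Recovery with as few changed genes as on chow was not tested. Genes were named if past the threshold without overlap, as MuRF relatives, as the 2 furthest members of each list, or as neighbours of Trim63. List members with an unadjusted p under 0.05 and those of the gene blocks were chosen after their values were seen. Further genes, such as Fbxo32, Fbxo40, Klhl40, Klhl41, Psmd7, Nppa, Acta1, Myh6, Fabp3, Cpt1b and Acot2, were named outside these rules.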

Additional observations from a re-analysis of the deposited data

Results flagged for a closer look

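For the 13 genes past the threshold on chow and the relatives Trim54 and Trim55, groups of 4 hearts, which occur only at 3 weeks of fenofibrate, were searched for a heart set far apart from the others. Of 30 pairs of a gene and a group, 3 had one, and chance alone marks about 1 group in 20. In MuRF1 +/+ hearts Hars read -0.45 in replicate 4, against -0.01 to 0.02 in the others. Med1 read 1.2 in MuRF1 -/- replicate 1, against 0.98 to 1.01. Misp3 read 0.41 in MuRF1 +/+ replicate 2, against 0.19 to 0.21.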

How the results depend on the processing

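Trim63, Klhl31 and Med1 stayed past the threshold in each of 21 alternative settings, and Arhgef19 in each of the 20 that tested it. The count of 13 became 8 with the heart channel alone, 8 with a strict filter that held only 9 of the 13, 6 without the 3-week arrays, and 51 with array weights; 12 of the 13 (all but Lsm4) remained with no filter and all 13 with weights. Leaving out 1 chow array gave 6 to 14. Same-sign counts became 44 of 50 at 3 weeks and 40 of 50 at 8 weeks with array weights, and 7 of 7 at 8 weeks with the heart channel alone and with the strict filter. The 8-week interaction gave 5 genes when no spot was left out of the background correction and 6 in the series matrix, in place of 0. In these settings the slope of MuRF1 -/- chow replicate 2 on Agilent's log ratio was 0.31 and 0.328, against 0.586 in the main fit. The part this plays was not tested. Other probes gave Gadd45gip1 0.04, Hars 0.03 and Med1 -0.23, signs opposite to the tested probes. Deviations of same-numbered hearts correlated at -0.0673, 0.143 and 0.449, and those of other pairs at -0.454 to 0.39. Deviations from means of so few hearts are constrained, so these values cannot show whether replicate numbers pair the hearts. With the replicate number as a block in the 6 chow arrays 22 genes passed, 12 of the 13 (all but Misp3) among them. Agilent's log ratio gave 10 genes and larger differences, Trim63 -5.24 and Klhl31 2.66. With slide as a block 10 genes passed. List medians reached -0.38 (sex-linked), -0.35 (red blood cell, within a slide) and 0.53 (cell cycle, series matrix, against -0.06 in Agilent's ratio). Those of the glucocorticoid, thyroid hormone, adipocyte and skeletal muscle lists turned sign in 7 of 23 settings each. Of 1348 comparisons over 59 genes that did not pass, 1 did in another setting. These 59 were MuRF relatives, the 2 furthest members of lists and Trim63 neighbours. Genes of the blocks and other genes named outside these rules are not among them. Probe signal near background limits Arhgef19, Il15, Snap91 and Misp3.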
